A study of Homo sapiens with 6 samples.

Results

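Tetraspanins are small membrane proteins that cross the membrane repeatedly and bind to each other and to integrins, proteases and growth factor receptors within the same membrane. They organise adhesion, migration and receptor trafficking, and several are abundant on exosomes, the vesicles released from multivesicular endosomes. The values below describe 10 of them, TSPAN1, TSPAN3, TSPAN4, TSPAN8, TSPAN13, TSPAN15, CD9, CD81, CD82 and CD151, in a lung cancer line with acquired resistance to an EGFR inhibitor. They were chosen by their log2 intensities in this contrast, with WZR6 against parental differences already known. Each is represented by the probe sets annotated to that gene alone, 12 of the 22215 probe sets tested, and together they make 10 of 11963 genes. The human family as listed has 33 genes, of which 26 had a probe set of their own.

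The study set the WZ4002-resistant clone WZR6 against the parental NCI-H1975 line, which comes from a human non-small cell lung tumour with mutant EGFR, on 3 arrays per group. WZ4002 is a kinase inhibitor aimed at mutant EGFR. WZR6 is a single clone, number 6, taken from cells grown in rising amounts of WZ4002, and both groups were grown in medium with 5% serum and harvested during exponential growth. The sources used here do not give whether the medium held drug when cells were harvested, and a change shared by resistant cells cannot be told apart from a feature of this 1 clone. The labels do not say that the 3 samples of a group came from separate cultures, so p-values measure only the spread between these samples.

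Array medians lay between 163 and 170 intensity units, and log2 intensities correlated with r of 0.998 within groups and 0.981 to 0.983 across groups. Of 7 lung epithelial markers 6 fell in limma and KRT18 was not called, and the summed intensity of the 7 was 26155 to 26844 in WZR6, against 45489 to 46006 in parental cells. EPCAM and CDH1 had the largest log2 differences, -6.26 and -5.69, followed by NKX2-1 at -2.14 and KRT19 at -1.71. The keratins KRT7, KRT8 and KRT18 differed by -0.77, -0.22 and -0.12, and like KRT19 they were bright in both groups. Of 8 leukocyte markers 7 were not called and CD14 fell (sums 430 to 467 in WZR6 and 593 to 645 in parental cells), and PTPRC, the defining leukocyte gene, and 3 others lay below the lower quartile of all values in both groups. Fibroblast and endothelial markers split into 2 higher, 2 lower and 4 not called (sums 1413 to 1445 in WZR6 and 2306 to 2494 in parental cells). COL1A1 and COL1A2 differed by -3.00 and -0.56, and CDH5 and PDGFRB by 0.89 and 0.66. The part of these shifts in the tetraspanin values was not tested.

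The members were chosen with this contrast in view, so their differences are given as a description, with no test. Values are log2 of the deposited intensity, errors of differences are standard errors (SE) of the limma fit, and n = 3 arrays per group throughout. All 10 members had groups that did not overlap, 4 higher and 6 lower in WZR6, beside 56.3% of all genes (29.2% higher and 27.1% lower). Of the 10, 3 were lower by at least 2-fold, CD9, TSPAN8 and TSPAN13, beside 3.42% of all genes (4.78% in either direction). None of the 10 was higher by at least 2-fold, beside 1.36% of all genes. The median difference of the members was -0.45, and that of all genes was 0.02. In limma 48.0% of all genes and 41.1% of all probe sets passed an adjusted p under 0.05. Nothing is read from these counts about the members, because the choice used the same values.

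The sequence before the gene start is shown for the 3 members lower by at least 2-fold and for CD82, a member that was higher. Each run is the 250 bases before the most upstream start in RefSeq on GRCh38.p14, read in the direction of the gene, and the arrays do not tell which start was used. Capitals mark the GC box GGGCGG, the E-box CAGGTG (the letters bound by SNAI and ZEB repressors) and the CCAAT box CCAAT, each searched on both strands.
CD9 (chr12:6199696-6199945, plus strand, 4 starts listed): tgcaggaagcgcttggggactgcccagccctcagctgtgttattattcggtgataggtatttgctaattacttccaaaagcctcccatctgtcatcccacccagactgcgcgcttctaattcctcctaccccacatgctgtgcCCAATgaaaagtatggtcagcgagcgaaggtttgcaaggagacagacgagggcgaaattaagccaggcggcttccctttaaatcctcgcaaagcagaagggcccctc
TSPAN8 (chr12:71158000-71158249, minus strand, 2 starts listed): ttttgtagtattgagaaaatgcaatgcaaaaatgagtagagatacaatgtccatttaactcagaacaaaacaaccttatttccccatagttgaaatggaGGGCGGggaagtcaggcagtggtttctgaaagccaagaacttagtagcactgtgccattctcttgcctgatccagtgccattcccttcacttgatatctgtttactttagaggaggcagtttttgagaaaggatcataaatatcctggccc
TSPAN13 (chr7:16753505-16753754, plus strand, 1 start listed): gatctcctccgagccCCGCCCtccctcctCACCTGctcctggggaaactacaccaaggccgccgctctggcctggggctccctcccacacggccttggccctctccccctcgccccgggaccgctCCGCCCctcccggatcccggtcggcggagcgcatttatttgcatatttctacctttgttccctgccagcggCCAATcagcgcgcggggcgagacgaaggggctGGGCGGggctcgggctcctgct
CD82 (chr11:44565413-44565662, plus strand, 1 start listed): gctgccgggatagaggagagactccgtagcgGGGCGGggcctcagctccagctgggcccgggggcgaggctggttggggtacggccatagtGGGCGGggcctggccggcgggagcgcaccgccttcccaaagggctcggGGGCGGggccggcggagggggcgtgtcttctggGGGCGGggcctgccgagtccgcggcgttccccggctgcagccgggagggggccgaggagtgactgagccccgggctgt

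The 4 windows differed in composition. TSPAN8 had 1 CpG and 40.8% G or C, and CD9 had 10 CpG and 52.8%, while TSPAN13 had 22 CpG and 70.0% and CD82 had 26 CpG and 77.2%. The median window of 27324 genes had 10 CpG and 57.6%. The windows of the lower genes shown thus ran from CpG-poor to CpG-rich. That of CD82 was the richest in G and C of the 7 members with an entry. By CpG the richest was TSPAN4, a higher member not shown, with 37 CpG and 74.8%. A GC box stood in 5 of these 7 windows, against 42.2% of all windows, with 4 copies in CD82, 3 in TSPAN13 and none in CD9. The E-box CAGGTG stood in 1 of 7, that of TSPAN13 (17.5% of all windows), and CCAAT in 3 of 7 (33.0%). The AP-1 letters TGACTCA and the TATA letters TATAAA, found in 4.15% and 11.2% of all windows, stood in 0 of 7. These matches describe letters only. TSPAN3, CD81 and CD151 are named here without a window.

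CD9, a tetraspanin of cell adhesion, motility and exosomes, differed most among the members. Its log2 intensity was 10.97, 10.88 and 10.97 in WZR6, against 12.77, 12.75 and 12.77 in parental cells. The WZR6 arrays lay far below all parental arrays, with an SD of 0.05 in WZR6 and 0.01 in parental cells. The difference was -1.82 ± 0.04 (SE), which is 3.53-fold lower in WZR6. CD9 remained bright in WZR6, well above the median of all values, 7.38.

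TSPAN8, a tetraspanin of epithelial tumours that is linked to exosomes, read 4.47, 4.54 and 4.18 in WZR6, against 6.08, 5.48 and 6.37 in parental cells. The groups did not overlap, and the parental arrays spread most of all members (SD 0.45). The difference was -1.58 ± 0.22 (SE), or 2.99-fold lower. The WZR6 mean of 4.40 lay below the lower quartile of all values, 5.27, so the size of this fold is limited by background. With values below the median of the arrays set to that median, the TSPAN8 difference was 0.

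TSPAN13 is a less studied member of the family. It measured 11.33, 11.44 and 11.56 in WZR6 and 12.68, 12.60 and 12.66 in parental cells. Every WZR6 array was more than 1 log2 unit below every parental array. The difference was -1.20 ± 0.07 (SE), 2.30-fold lower, at a level that stayed high in both groups.

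TSPAN15 belongs to the group of tetraspanins that bind the protease ADAM10 and carry it to the cell surface. Its values were 8.58, 8.55 and 8.54 in WZR6, against 9.23, 9.18 and 9.31 in parental cells, a difference of -0.69 ± 0.05 (SE). TSPAN1, which is expressed in epithelia, read 6.71, 6.70 and 6.43 in WZR6, against 7.24, 7.26 and 7.37 in parental cells, a difference of -0.68 ± 0.09. Both were lower on every WZR6 array than on any parental array, and the TSPAN1 probe set lay below the median of all values in both groups. With values below that median set to it, the TSPAN1 difference was 0. TSPAN3, a broadly expressed member, had 12.15, 12.09 and 12.18 in WZR6, against 12.34, 12.34 and 12.39 in parental cells. This was the smallest difference among the lower members, -0.22 ± 0.04, and its second probe set differed by -0.19.

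**Figure D1:**
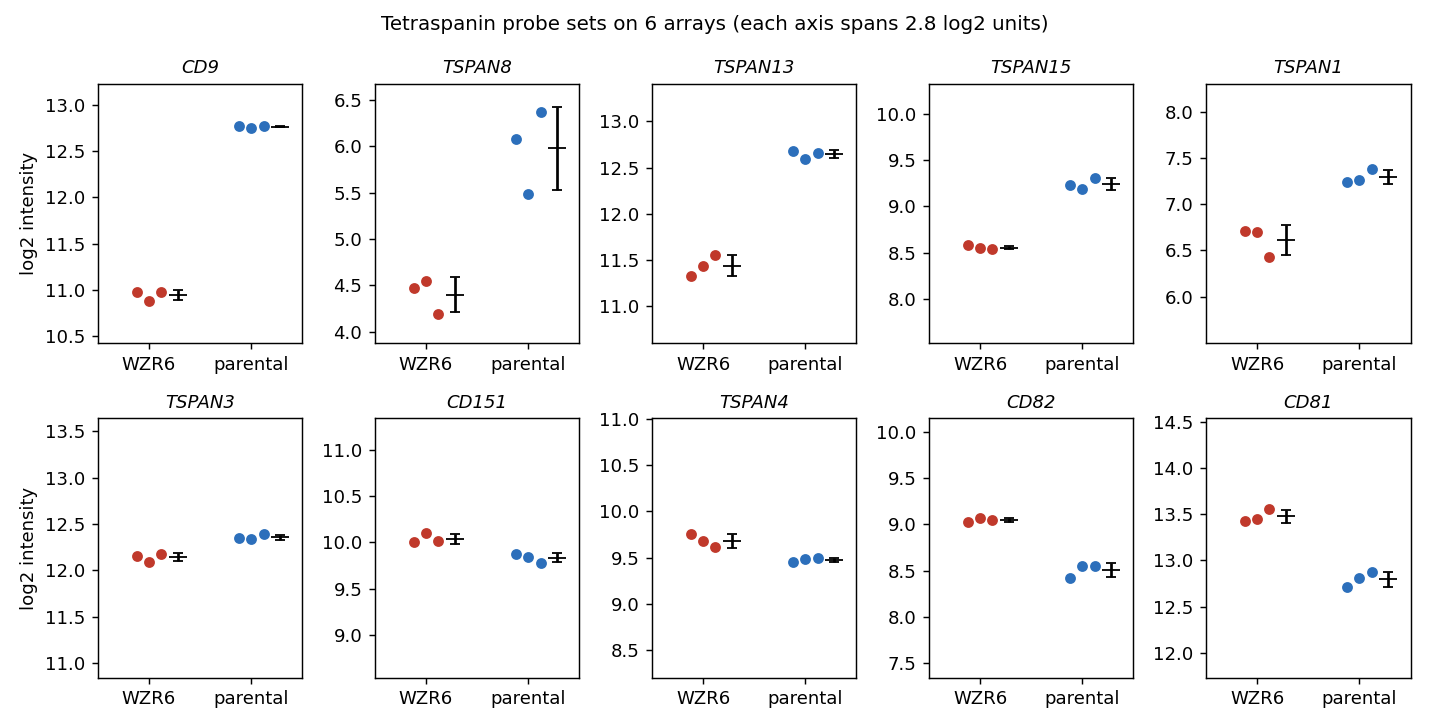
Log2 intensity of the probe set that stands for each of the 10 tetraspanins, on the y axis, in 3 WZR6 arrays (red, left) and 3 parental arrays (blue, right), with the mean and SD in black. CD9 lies at 10.88 to 10.97 in WZR6 and 12.75 to 12.77 in parental cells, while CD81 lies higher in WZR6, at 13.43 to 13.55 against 12.71 to 12.87.

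The other 4 members were higher in WZR6. CD81, a partner of CD9 that also forms part of the B cell coreceptor, read 13.43, 13.45 and 13.55 in WZR6, against 12.71, 12.81 and 12.87 in parental cells. The difference was 0.68 ± 0.06 (SE), or 1.60-fold. CD81 and CD9 share many partners in the membrane and differed in opposite directions here. CD82, described as a suppressor of metastasis, had 9.03, 9.07 and 9.05 in WZR6, against 8.42, 8.55 and 8.54 in parental cells. Its difference was 0.54 ± 0.05, or 1.46-fold, and it was read by 1 probe set of the type _x_at, which can detect several transcripts.

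CD151, which binds laminin-binding integrins, and TSPAN4, a protein of the vesicles that migrating cells leave behind, differed least. CD151 measured 10.01, 10.10 and 10.01 in WZR6, against 9.87, 9.84 and 9.78 in parental cells, a difference of 0.21 ± 0.05 (SE). TSPAN4 measured 9.76, 9.68 and 9.61 in WZR6, against 9.45, 9.48 and 9.50 in parental cells, also 0.21 ± 0.05. The groups were separate but close in both genes, by gaps of about the spread within a group. The second TSPAN4 probe set differed by 0.19. Both genes were read through probe sets of the types _x_at or _s_at alone, so that without such probe sets CD81 was the only one of these 4 genes left.

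Position on the chromosomes was not used to choose the members. All 4 higher members lie on chromosome 11 in RefSeq, and all 6 lower members lie elsewhere, on chromosomes 1, 7, 10, 12 and 15. For each gene the 10 nearest measured genes on each side served as its neighbours. The members were chosen by their differences, so that their place among unselected neighbours is a description and no evidence that they differ from their region. CD81 stood above all 20 of its neighbours, whose median difference was 0.02, and CD82 above 19 of 20 (median 0.17). The neighbours of CD151 and TSPAN4 are largely the same genes, 17 of 20, with medians of 0.07 and 0.04, and these 2 members exceeded 15 and 17 of them. TSPAN32, a tetraspanin of blood cells next to CD81 in the order of measured genes, differed by 0.00 ± 0.04 (SE, limma adjusted p = 0.956).

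The lower members were described in the same way. CD9 was below 19 of 20, with a neighbour median of 0.11, and the exception was SCNN1A, an epithelial sodium channel subunit, at -2.83. TSPAN8 was below all 20 (median 0.09), although LGR5 and PTPRR flank it at -0.06 and 1.07. TSPAN1 was below 19 of 20 within a raised stretch, where the median was 0.38 and 14 neighbours were called higher. TSPAN13 lies in a lowered stretch of chromosome 7, where the neighbour median was -0.40 and 12 of 20 neighbours were called lower. The gene next to it, AGR2, a secreted epithelial protein, differed by -4.19, and TSPAN13 itself was lower than 17 of the 20. TSPAN15 and TSPAN3 were below 19 and 17 of their 20 neighbours, whose medians were -0.07 and 0.06. How far the lowered stretch contributes to TSPAN13 was not tested; the difference of TSPAN13 minus its neighbour median was -0.80.

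**Figure D2:**
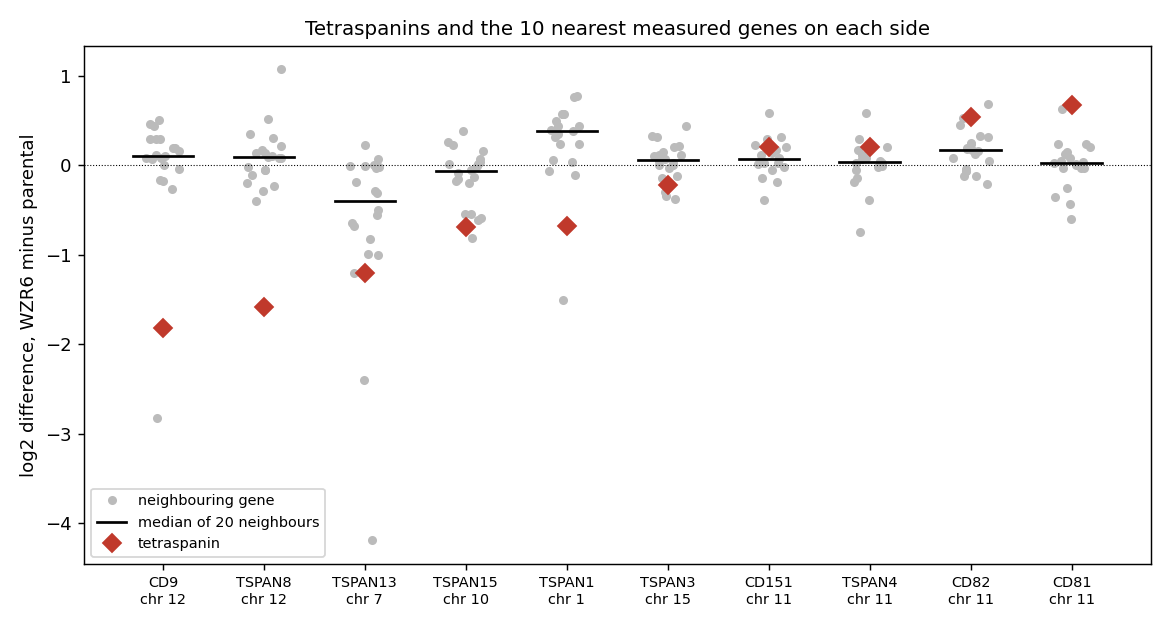
Log2 difference, WZR6 minus parental, on the y axis for the 10 tetraspanins (red diamonds) and the 20 nearest measured genes of each (grey points, median as a black line), ordered by the tetraspanin's difference. CD9 is at -1.82 and TSPAN8 at -1.58, beside neighbour medians of 0.11 and 0.09, and TSPAN13 lies in a stretch with a median of -0.40.

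The remaining tetraspanins, taken as the rest of the family by name, were tested in limma. The members had been taken out by their differences in this contrast. What was left may therefore hold fewer changed genes than the family as a whole. The counts describe only this remainder. Of 16 measured genes 4 fell, 1 rose and 11 were not called in limma (adjusted p under 0.05 over all genes), beside 23.5% of all genes called lower and 24.5% called higher. Their median difference was 0.01. TSPAN12, a coreceptor of norrin signaling through frizzled in retinal vessels, fell by more than 2 log2 units. It read 6.38, 5.80 and 6.69 in WZR6, against 8.44, 8.29 and 8.81 in parental cells. All WZR6 arrays lay below the parental ones in spite of a wide spread, and the difference was -2.22 ± 0.24 (SE, adjusted p = 0.00028 in limma), or 4.67-fold lower. The WZR6 mean of 6.29 lay below the median of all values, and with values below that median set to it the difference was -1.14. TSPAN12 was below all 20 of its neighbours, whose median was -0.14, and 10 of these were called lower and 1 higher. How far its region contributes was not tested.

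CD63, the classical marker of late endosomes and exosomes, had 12.95, 12.96 and 12.98 in WZR6, against 13.44, 13.44 and 13.43 in parental cells. The arrays of each group were nearly identical and the groups were separate, and CD63 fell by 0.47 ± 0.04 (SE, adjusted p = 8.12e-05 in limma). TSPAN31, first described as a gene amplified in sarcoma, fell by 0.68 ± 0.06 (adjusted p = 0.000102 in limma), and its second probe set differed by -0.44. TSPAN14, which like TSPAN15 binds ADAM10, fell by 0.42 ± 0.05 (adjusted p = 0.000506 in limma). TSPAN5, another ADAM10 partner, was not called, at -0.04 ± 0.07 (adjusted p = 0.656 in limma). Of the 3 tetraspanins named here as ADAM10 partners, TSPAN15 and TSPAN14 were thus lower in WZR6 and TSPAN5 showed no difference beyond its error. Of the 20 neighbours of TSPAN31, 9 were called lower and 2 higher (median -0.15). CDK4 and AGAP2 flank TSPAN31 at -0.63 and 0.02. CD63 and TSPAN14 each had 8 of 20 neighbours called lower and 2 higher (medians -0.09 and -0.14). How far these regions contribute was not tested.

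TSPAN9, a tetraspanin of platelets, was the single gene of the remaining family called higher, at 0.26 ± 0.09 (SE, adjusted p = 0.0424 in limma). Its other probe set differed by -0.00, and without parental replicate 3 the difference was 0.17 (adjusted p = 0.0742 in limma). The call also ended without WZR6 replicate 2 (adjusted p = 0.113 in limma), without WZR6 replicate 3 (0.118) or without parental replicate 1 (0.0681). The remaining tetraspanins named here were not called. The leukocyte genes CD37 and CD53 differed by 0.01 and 0.05, the urothelial genes UPK1A and UPK1B by 0.08 and -0.13, and the photoreceptor genes PRPH2 and ROM1 by 0.06 and 0.18. CD37, UPK1A, UPK1B and PRPH2 had means below the lower quartile in both groups, as did TSPAN2 and TSPAN7, so that these arrays say little about them. TSPAN6, a bright gene, differed by 0.06 ± 0.05.

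**Figure D3:**
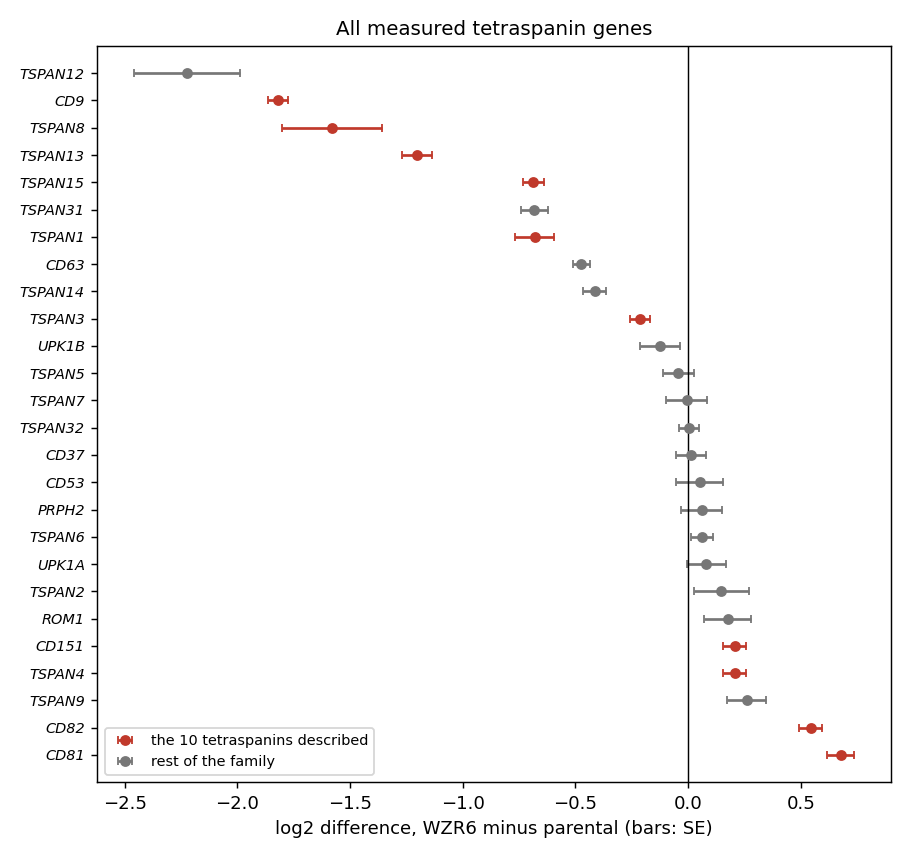
Log2 difference, WZR6 minus parental, with its SE on the x axis for the 26 measured tetraspanin genes, the 10 described in red and the rest of the family in grey, ordered from the most lowered at the top. TSPAN12 at -2.22 and CD9 at -1.82 are at the lower end and CD82 and CD81 at the upper end, at 0.54 and 0.68.

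Tetraspanins act through the proteins they bind, and 19 of 22 listed lateral partners were measured. In limma 10 fell, 2 rose and 7 were not called (median -0.39, against 0.02 for all genes), beside 23.5% of all genes called lower and 24.5% called higher. EPCAM, CLDN7, EGFR and MET, all among those that fell, were known from earlier results of these data when the list was made. These counts and the median were therefore partly set in advance. The laminin-binding integrin chains, partners of CD151 and CD9, were among the decreases. ITGA6 fell by 1.21 ± 0.06 (SE, adjusted p = 7.91e-06 in limma), with its second probe set at -1.06. ITGA3 fell by 1.13 ± 0.08 (adjusted p = 5.39e-05 in limma). ITGB4, which pairs with ITGA6, fell by 1.31 ± 0.13 (adjusted p = 0.000178 in limma). The ITGB4 call rests on its brightest probe set, since the others differed by -0.38, -0.08 and 0.08 near or below the lower quartile, and with values below the median of all arrays set to that median the difference was -0.20 (adjusted p = 0.221 in limma). The common chain ITGB1 read 14.23 to 14.37 in WZR6 and 14.27 to 14.38 in parental cells and differed by -0.03 ± 0.06 (adjusted p = 0.671 in limma). CD151 itself was higher in WZR6, by 0.21.

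EPCAM and CLDN7, which form a complex with tetraspanins in epithelial cells, differed by -6.26 ± 0.13 and -2.78 ± 0.08 (SE), and MET, the hepatocyte growth factor receptor, by -0.98 ± 0.04 (adjusted p at or below 6.37e-06 in limma for these 3). EGFR, the target of the inhibitor, differed by -0.81 ± 0.07 (adjusted p = 9.22e-05 in limma). EPCAM, CLDN7, MET and EGFR were known from earlier results of the same arrays. ITGA5, the fibronectin receptor chain, rose by 0.59 ± 0.05 (adjusted p = 8.29e-05 in limma). HBEGF, a growth factor precursor that binds CD9, is uncertain, since its probe sets were called in opposite directions. The brightest differed by -0.39 and another by -0.21. A dim one differed by 0.37, with means of 5.43 in WZR6 and 5.05 in parental cells, near the lower quartile of all values. ITGA5 and CLDN1 are named because they were the 2 partners called higher. The tight junction gene CLDN1 differed by 0.27 ± 0.09 (adjusted p = 0.0447 in limma). That call ended without any 1 of 5 arrays, all but parental replicate 3, with adjusted p-values of 0.0807 to 0.128, under cyclic loess (0.113) and with the floor at the median, where the difference was 0. ADAM10, the protease bound by TSPAN15, was not called on its brightest probe set, at 0.03 ± 0.05 (adjusted p = 0.678 in limma). Its 2 other probe sets were called higher in limma over all probe sets, at 0.29 (adjusted p = 0.00334) and 0.24 (0.0238). The mean of all 3 was called too, at 0.19 (adjusted p = 0.0167 in limma). IGSF8, PTGFRN and ZDHHC2 had no probe set of their own.

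Of 17 measured vesicle and endosome genes, 6 fell, 3 rose and 8 were not called in limma (median -0.10). Among all genes 23.5% were called lower and 24.5% higher, 48.0% in either direction. The 6 include RAB27A and the 3 include RAB11A, both uncertain by their probe sets. Nothing is read from these counts about the list. The syndecans, cargo of exosomes, were the largest decreases. SDC1 read 8.74, 8.73 and 8.77 in WZR6, against 10.45, 10.39 and 10.36 in parental cells, and fell by 1.65 ± 0.04 (SE, adjusted p = 7.46e-07 in limma). SDC4 fell by 0.84 ± 0.04 (adjusted p = 1.33e-05 in limma). Syntenin, the adaptor SDCBP that links syndecans to vesicle budding, differed by -0.02 ± 0.04 (adjusted p = 0.769 in limma).

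CHMP2A, a subunit of the membrane scission complex, fell by 0.61 ± 0.04 (SE, adjusted p = 5.07e-05 in limma), while TSG101, which acts earlier in that pathway, rose by 0.32 ± 0.04 (adjusted p = 0.000891 in limma). RAB27B, which with RAB27A acts in the docking of multivesicular endosomes, fell by 0.36 ± 0.06 (adjusted p = 0.00287 in limma), a call that ended with values below the median set to it. Its second probe set differed by -1.10. RAB27A is uncertain, since probe sets at -0.50 and -0.53 stood against others at 0.06 and 0.31. RAB11A and FLOT1, named after their values were seen as the other genes called higher, differed by 0.16 and 0.17. RAB11A is uncertain, since its other probe set was called at -0.41. Neither call was stable to leaving out 1 array: RAB11A was lost without WZR6 replicate 1 or 2 or parental replicate 3 (adjusted p up to 0.0801 in limma), and FLOT1 without WZR6 replicate 2 or 3 or parental replicate 2 or 3 (up to 0.135). The FLOT1 call was also lost under cyclic loess (adjusted p = 0.115 in limma), quantile normalization (0.0518), the floor at the median (0.0654) and averaged probe sets (0.05002).

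**Figure D4:**
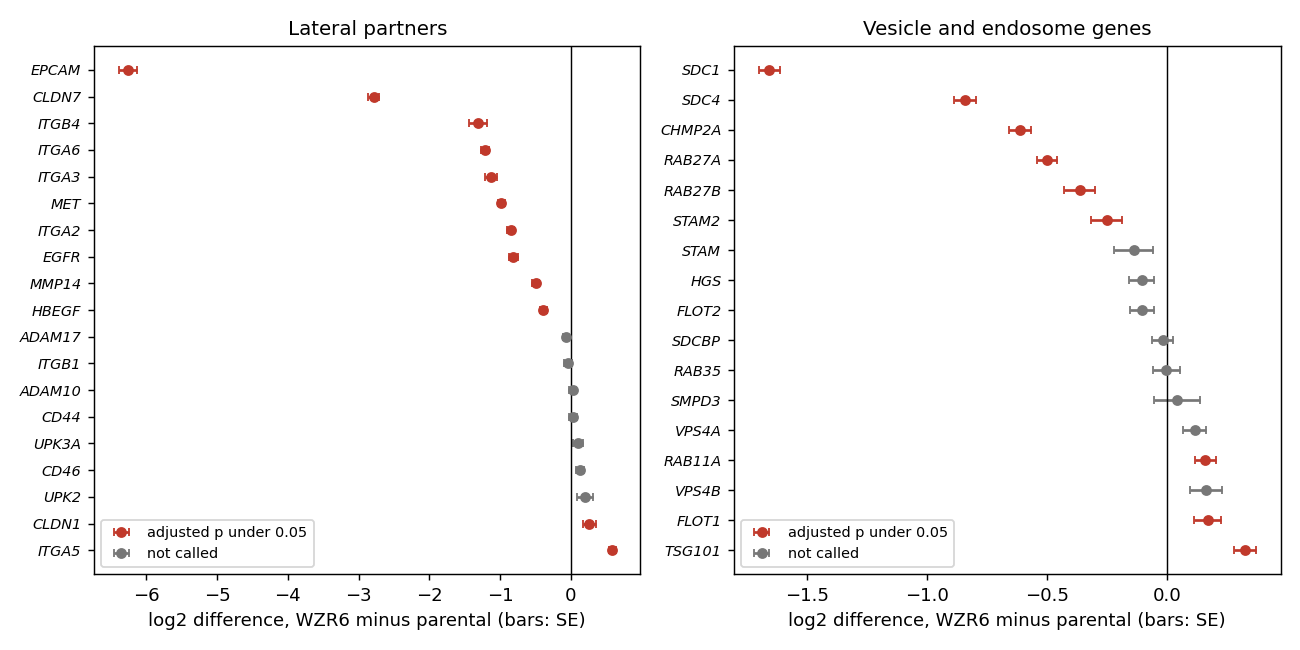
Log2 difference, WZR6 minus parental, with its SE on the x axis for 19 lateral partners of tetraspanins (left) and 17 vesicle and endosome genes (right), in red where the limma adjusted p was under 0.05 and grey where not. EPCAM at -6.26 and SDC1 at -1.65 are the lowest of each list, while ITGB1, ADAM10 and SDCBP, each by its brightest probe set, lie within 0.05 of 0.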

How the data were processed

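RNA of 3 WZR6 and 3 parental NCI-H1975 samples was measured on 1 biotin-labelled oligonucleotide array each. The deposited table holds linear intensities per probe set, made by the authors with RMA, per the submitters' processing notes, which give no version. In general RMA corrects background, makes the arrays' distributions alike and summarises probes, and it can understate the differences of dim genes. The log2 of each value was taken without a pseudocount. Detection calls and scan dates were not used here. Of 22277 probe sets, 62 controls were left out. Platform annotation named 1 gene for 19064 probe sets, several for 1043 and none for 2108, and 0 symbols changed on matching to RefSeq (GRCh38.p14). The brightest own probe set over the 6 arrays stood for each of 11963 genes.

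Groups came from the sample titles. All genes were fitted in R 4.3.3 by limma 3.58.1 (functions lmFit and eBayes; two-sided; Benjamini-Hochberg over all genes, calls at adjusted p under 0.05). The fit was also run on simulated arrays drawn independently, with far fewer changed genes than were called here. That run cannot show how the fit behaves if the samples of a group are not separate cultures. Members and lists were chosen with earlier results of these data known, so members have no p. The rule for named genes took all 10 members, CD63, ADAM10, IGSF8 and PTGFRN, every called remaining tetraspanin, and up to 6 called genes per other list with the largest differences; others named were chosen after their values were seen. A gene whose own probe sets were called in opposite directions is called uncertain. Neighbours follow RefSeq gene order. Promoter windows came from RefSeq, where 7 of 10 members had an entry. Protein sequences were not used here. Alternatives were 3 normalizations, a filter and a floor at the median, an intensity trend with robust variance, a block on replicate number, averaging each gene's probe sets, dropping _x_at and _s_at probe sets, and dropping each array in turn. The 3 arrays per group limit the precision. Python 3.11.15 and matplotlib 3.10.9 drew the figures.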

Additional observations from a re-analysis of the deposited data

How the results depend on the processing

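The direction of all 10 member differences held under every alternative that kept the gene, except that the floor at the median of all values set TSPAN1 and TSPAN8 to 0. For most alternatives this was fixed in advance. The intensity trend, the replicate block and the filter leave a member's estimate as it was. Averaging can move only members with a second probe set. Groups that do not overlap keep their sign without any 1 array. CD9 ranged from -1.85 to -1.78, TSPAN13 from -1.26 to -1.15 and CD81 from 0.64 to 0.72. The filter at the median level kept 8 of 10 members, and leaving out _x_at and _s_at probe sets kept 7, of which 1 was higher without overlap. The count of remaining tetraspanins called higher was 0 under cyclic loess, the floor, the replicate block, averaged probe sets and without _x_at and _s_at probe sets, and 0 to 1 with 1 array left out. In limma at an unadjusted p under 0.05 it was 1 or 2 in these alternatives, and 0 without WZR6 replicate 2. The gene counted was not always TSPAN9, which did not rise without _x_at and _s_at probe sets. Without _x_at and _s_at probe sets 2 remaining tetraspanins, with 12 measured, were called lower, TSPAN9 differed by -0.00450, ITGB4 by 0.0781, and 6 of 15 partners were called lower. Partners called higher numbered 1 under cyclic loess, the floor or without those probe sets, 4 with the mean of probe sets, and 1 to 2 with 1 array left out. Vesicle and endosome genes called higher numbered 5 above the median level, where fewer genes were tested, 1 with the mean of probe sets, where RAB11A differed by -0.12, 1 without _x_at and _s_at probe sets, and 1 to 3 with 1 array left out. The cause of these moves was not tested. Among all calls, decreases made up 49.0%, 54.1% under cyclic loess and 42.2% under median centring. Same-numbered samples deviated together with r of -0.01, 0.12 and 0.23. These values do not tell whether same-numbered samples were handled together. The replicate block moved the number of called genes to 5729, against 5748. With the block the calls of TSPAN9 (adjusted p = 0.0674 in limma) and FLOT1 (0.0772) were lost.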
